A study of Rattus norvegicus with 8 samples.

Results

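Expression of 6 genes of smooth muscle and of intermediate filaments, Acta2, Tagln, Myl9, Myh11, Des and Vim, was followed in rat soleus through unloading and walking. They are 6 of 4736 genes named singly on the array. Every probe set whose only gene symbol was one of the 6 was taken, which gave 12 probe sets of 8740: 3 for Acta2, 3 for Myh11, 2 for Tagln, 2 for Myl9, 1 for Des and 1 for Vim. A further 4 probe sets carry Acta2 beside another gene and were left out. The soleus is a calf muscle of mostly slow fibres that works against gravity. It came from female rats, and each array held RNA pooled from 8 to 10 rats. Control rats (3 pools) had 12 h of spontaneous activity in normal cages. In unloaded rats (3 pools) the hindlimbs bore no weight during those 12 h. Walked rats (2 pools) were unloaded for 12 h as well and then walked on a treadmill for 2 h in all, in 30 min bouts that alternated with 30 min in the cage over 4 h. P-values therefore measure the spread between pools and not between single animals.

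Smooth muscle cells of arteries contract when myosin, built from heavy chains such as Myh11 and regulatory light chains such as Myl9, pulls on filaments of the smooth muscle actin Acta2. Tagln (SM22) binds these actin filaments and is a widely used early marker of the lineage. Intermediate filaments are a separate, non-contractile network: desmin (Des) ties the sarcomeres of skeletal fibres together at the Z-disc and is also found in smooth muscle, while vimentin (Vim) is the intermediate filament of fibroblasts, endothelial cells and other mesenchymal cells. In whole soleus the smooth muscle genes come mainly from vessel walls and Des mainly from the fibres. In such bulk RNA, fewer cells of a type and less RNA per cell cannot be told apart.

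Transcription of Acta2 and Tagln is classically driven through CArG boxes, which bind serum response factor (SRF). Promoter windows from RefSeq (GRCr8, 250 bases before to 50 after the annotated start) were at hand for 3 of the 6 genes, Acta2, Des and Vim. They were searched for CC, then 6 bases of which at least 5 are A or T, then GG, a pattern that reads alike on both strands. The Acta2 window (chr1:241172454-241172753, minus strand) is shown because 1 Acta2 probe set fell in unloaded soleus, and the Des window (chr9:84299376-84299675, plus strand) because Des was the one gene that lay higher in unloaded soleus. Capitals mark the matches.
Acta2: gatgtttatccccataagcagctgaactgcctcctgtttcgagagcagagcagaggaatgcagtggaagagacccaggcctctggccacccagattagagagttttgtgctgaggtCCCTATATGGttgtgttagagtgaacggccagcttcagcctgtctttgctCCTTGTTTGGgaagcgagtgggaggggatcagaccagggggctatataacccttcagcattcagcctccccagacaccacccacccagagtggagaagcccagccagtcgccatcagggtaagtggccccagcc
Des: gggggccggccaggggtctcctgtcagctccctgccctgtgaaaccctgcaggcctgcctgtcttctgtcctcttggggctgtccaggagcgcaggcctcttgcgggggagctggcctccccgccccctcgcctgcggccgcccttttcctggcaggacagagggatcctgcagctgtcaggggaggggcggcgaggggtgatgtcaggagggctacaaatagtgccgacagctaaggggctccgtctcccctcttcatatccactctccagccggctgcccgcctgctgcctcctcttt

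The Acta2 window held 2 matches, CCCTATATGG from 134 to 125 bases before the start and CCTTGTTTGG from 84 to 75 bases before it. Each has 5 of 6 core bases A or T, so neither meets the strict form with all 6. The Des and Vim windows held 0 matches. Among 33465 RefSeq windows of the same length, 9.42% held at least 1 such match, 0.846% held 2 or more, and 1.64% held a strict box. Of 9 actin and tropomyosin genes with a window, 5 held at least 1 match (Acta1, Acta2, Actc1, Actg1 and Tpm3). Of 26 smooth muscle contractile and cytoskeletal genes, Acta2 among them, 4 did (15.4%). Of 27 genes of intermediate filaments and their partners, 1 did (3.7%). A match describes these letters and not a bound site, and a window without one says only that the letters are not there.

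The deposited value is a signal intensity per probe set, scaled here to one trimmed mean on every array. Median signal per array was 37.2 to 42.4. Probe sets with a mean signal under 25.8 were left out of testing, which kept 5244 of 8740 probe sets and 11 of the 12 described here. Calls, and the words rose and fell, stand for an adjusted p under 0.05 by limma (Benjamini-Hochberg over all 5244). Precision is limited by how few arrays there are, and with 3 pools against 3, or 3 against 2, an exact permutation test of a single probe set cannot go below p = 0.1. All 14 measured genes that mark skeletal fibres were above the filter, and the slow myosin Myh7 had group means of 5323 to 7418. Control pool 3 was the brightest control for Tagln, Myl9, Vim and 2 of the 3 Myh11 probe sets, so calls that were lost without it are given with that value.

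**Figure D1:**
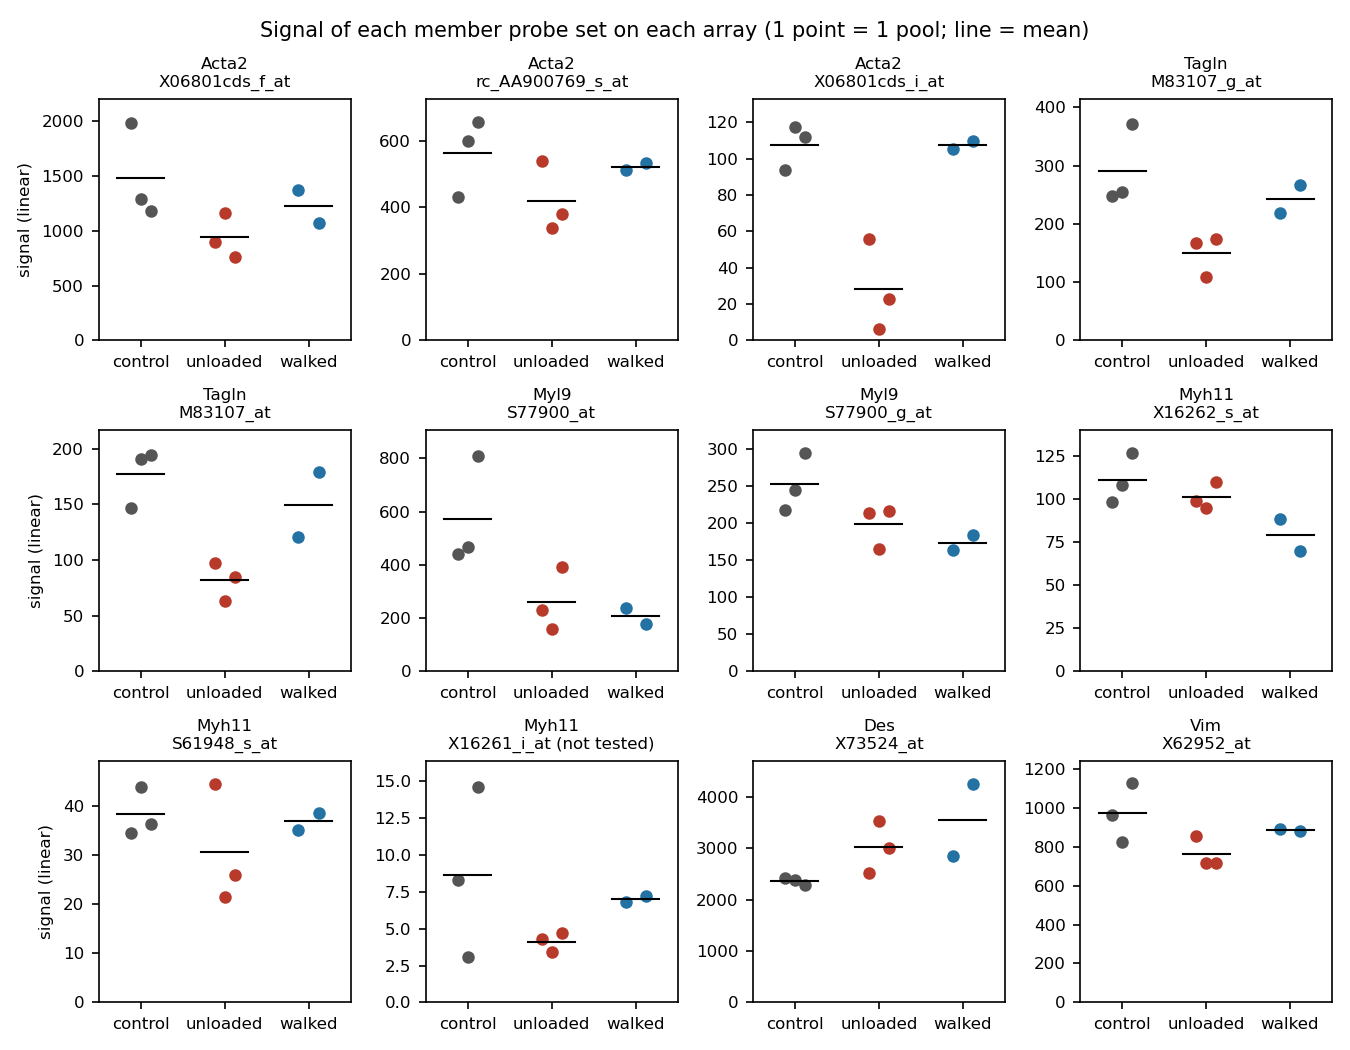
Signal on a linear scale from 0 (vertical axes) of the 12 probe sets in the 3 control, 3 unloaded and 2 walked pools; each point is 1 pool and each line a group mean. For Acta2 X06801cds_i_at and both Tagln probe sets the unloaded pools lie below all control and walked pools, for both Myl9 probe sets unloaded and walked pools lie below all control pools, and Des lies lowest in control.

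The first comparison asked what 12 h without weight bearing changed. In unloaded soleus 4 of the 11 tested probe sets fell and 0 rose. The falls were on both probe sets of Tagln, on 1 of the 2 of Myl9 and on 1 of the 3 of Acta2, its dimmest. Across all tested probe sets limma called 3.32% lower and 3.99% higher. The median log2 fold change was -0.43 over the 11 and -0.08 over all tested probe sets, and 10 of the 11 lay below 0, against 3080 of 5244. In 6 of the 12 probe sets every unloaded pool was below every control pool, as was so for 12.8% of the 8740 probe sets. The 6 were both probe sets of Tagln, both of Myl9 and those of Acta2 other than rc_AA900769_s_at. The 4 calls include both probe sets of 1 gene, so they are not 4 separate genes. The 6 genes were chosen with earlier results of these data known. The shares over all probe sets, here and below, therefore stand beside them as a description only.

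Tagln fell on both of its probe sets. On M83107_at the control signals were 146, 191 and 194, and the unloaded signals 97.6, 63.2 and 84.6. Every unloaded pool was well below the lowest control. The log2 fold change was -1.13 ± 0.22 (SE; limma adjusted p = 0.00988), a 2.18-fold lower level. On M83107_g_at the signals were 247, 255 and 371 in control and 168, 109 and 175 in unloaded pools, which gave a difference of -0.96 ± 0.22 on the log2 scale (limma adjusted p = 0.0223), again with no overlap. The call on M83107_at held in each of the 8 fits that left out 1 array. That on M83107_g_at was lost without control pool 3 (-0.77, adjusted p = 0.0649) and without unloaded pool 2 (-0.74, adjusted p = 0.0820), and with no filter on dim probe sets neither was called (adjusted p = 0.0666 and 0.120).

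Acta2 was read by 3 probe sets that differ in how specific they are. In this array's naming, the ending _f_at marks probes shared with a sequence family, _s_at probes shared by several similar transcripts, and _i_at a set with fewer probes than the standard number. On X06801cds_i_at the control signals were 93.8, 117 and 112, and the unloaded signals 55.7, 6.40 and 22.7. The unloaded pools were all below the controls and far apart among themselves. The log2 fold change was -2.42 ± 0.58 (limma adjusted p = 0.0278), with a 95% interval of -3.69 to -1.14. Without unloaded pool 2, the dimmest, it was -1.59, and without unloaded pool 1 it was -3.15. The call was lost without any 1 control pool (adjusted p = 0.0604 to 0.0708), without unloaded pool 3 (0.0565) and with no filter on dim probe sets (0.176).

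The other Acta2 probe sets moved less. On X06801cds_f_at, the brightest, the control signals were 1981, 1289 and 1184 and the unloaded signals 903, 1162 and 762. The groups did not overlap, but unloaded pool 2 came close to the lowest control, and the log2 fold change of -0.64 ± 0.21 was not called (limma adjusted p = 0.103). On rc_AA900769_s_at the signals were 430, 600.5 and 656 in control and 540.1, 337 and 380 in unloaded soleus. Here the groups overlapped, since unloaded pool 1 was above control pool 1 (-0.43 ± 0.20, limma adjusted p = 0.246). The 3 probe sets also ordered the pools differently. Over the 8 arrays the log2 signal of rc_AA900769_s_at had r = 0.842 with X06801cds_i_at and r = 0.0890 with X06801cds_f_at, a description over arrays of 3 groups. For Tagln and Myl9 the paired probe sets had r = 0.945 and 0.908.

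Myl9, the regulatory light chain, fell on 1 of its 2 probe sets. On S77900_at the control signals were 441, 468 and 807 and the unloaded signals 231, 159 and 392. All unloaded pools were below all controls, with unloaded pool 3 not far under the lowest of them. The log2 fold change was -1.18 ± 0.32 (limma adjusted p = 0.0465), a 2.26-fold lower level. It was -0.90 without control pool 3 (adjusted p = 0.130) and -0.87 without unloaded pool 2 (0.159). Only the omission of unloaded pool 3 among the 8 arrays kept the call (-1.52, adjusted p = 0.0101). The call was also lost with quantile normalization (-1.15, limma adjusted p = 0.0570) and with only the 2 groups compared (0.0640). The same held with no mean-variance trend (0.123) and with no filter on dim probe sets (0.205). On S77900_g_at the control signals were 218, 245 and 295 and the unloaded signals 214, 165 and 216. The groups did not overlap but touched, with a log2 fold change of -0.35 ± 0.17 (limma adjusted p = 0.271). Myl9 has close relatives, Myl12a and Myl12b, whose transcripts these probes may also detect.

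Myh11, the smooth muscle myosin heavy chain and the most lineage-restricted of the contractile genes, had no call on either tested probe set. On X16262_s_at the signals were 98.3, 108 and 127 in control and 99.2, 94.9 and 110.3 in unloaded soleus, so the groups overlapped widely (-0.13 ± 0.18, 95% interval -0.52 to 0.26, limma adjusted p = 0.739). On S61948_s_at they were 34.6, 43.9 and 36.4 against 44.4, 21.5 and 26.0 (-0.39 ± 0.34, limma adjusted p = 0.572). That probe set is dim, and its interval of -1.13 to 0.36 includes changes as large as that of Tagln. The third, X16261_i_at, was under the filter, at 3.10 to 14.6 in control, 3.40 to 4.70 in unloaded and 6.81 to 7.21 in walked pools. These signals lie near the floor of 4.10, and the probe set has no test here.

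Des was the only gene of the 6 with a higher unloaded mean. Its control signals were 2427, 2378 and 2291 and its unloaded signals 2518, 3538 and 3003. The controls lay close together, while the unloaded pools were spread more widely above them. The log2 fold change was 0.34 ± 0.16, with an interval of -0.02 to 0.70, and was not called (limma adjusted p = 0.271). Vim pointed the other way, with 965, 826 and 1128 in control and 855, 717 and 717 in unloaded soleus. Unloaded pool 1 was above control pool 2, so the groups overlapped (-0.34 ± 0.14, limma adjusted p = 0.188).

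**Figure D2:**
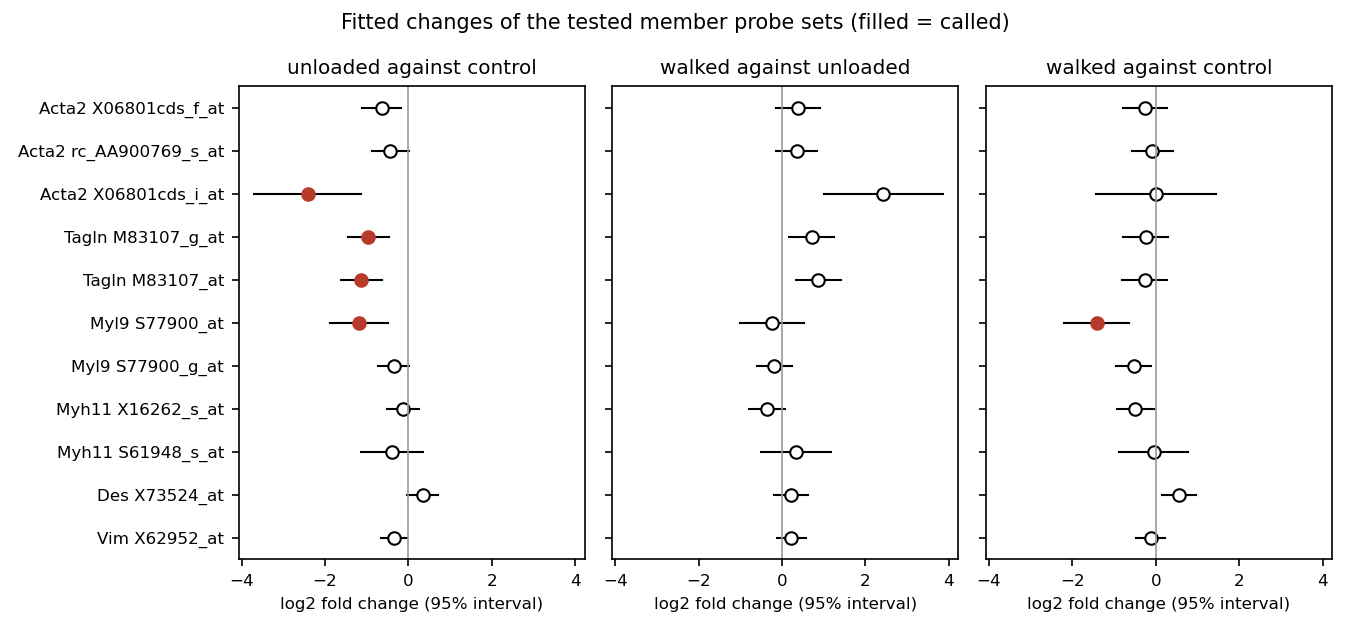
Log2 fold change (horizontal axes) with its 95% interval for the 11 tested probe sets in the 3 comparisons; filled points were called by limma at an adjusted p under 0.05. Calls lie below 0 for Acta2 X06801cds_i_at, both Tagln probe sets and Myl9 S77900_at in unloaded against control, and for Myl9 S77900_at in walked against control.

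The second comparison asked what differed when walking followed straight on unloading. Between the bouts these rats were also active in the cage, and 4 h passed in all. Walking, cage time and the hours that passed cannot be told apart here. Of the 11 tested probe sets 0 were called by limma, against 2.73% of all tested probe sets higher and 1.47% lower, and 3 had an unadjusted p under 0.05. Those 3 were Acta2 X06801cds_i_at and both Tagln probe sets, all higher after walking. The median log2 fold change was 0.34 over the 11 and -0.05 over all, and 8 of the 11 lay above 0, against 2342 of 5244. In 5 of the 12 both walked pools were above every unloaded pool, as they were for 12.8% of the 8740. Both comparisons use the unloaded pools, so a low unloaded value enters the 2 comparisons with opposite sign, and the values of each are given side by side only.

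On Acta2 X06801cds_i_at the walked signals were 105 and 109.7, against 6.40 to 55.7 in unloaded pools. Both walked pools were about as bright as controls and nearly equal. The log2 fold change was 2.42 ± 0.65 with an interval of 0.99 to 3.85 (limma adjusted p = 0.0664), and it was called without unloaded pool 1 (3.16, adjusted p = 0.00540) or unloaded pool 2 (1.60, adjusted p = 0.0468). On Tagln M83107_at the walked signals were 121 and 179, both above the 3 unloaded pools (0.87 ± 0.25, limma adjusted p = 0.0802). M83107_g_at gave 219 and 266, again with no overlap (0.71 ± 0.25, limma adjusted p = 0.152). On X06801cds_f_at the walked signals were 1376 and 1071, one above and one inside the unloaded range (0.39 ± 0.24, limma adjusted p = 0.451). On rc_AA900769_s_at they were 512 and 534, both inside it (0.35 ± 0.23, limma adjusted p = 0.478).

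Myl9 had no call and no separation of groups. On S77900_at the walked signals were 237 and 178, inside the range of the unloaded pools (-0.24 ± 0.35, interval -1.02 to 0.53, limma adjusted p = 0.786). The sign turned without unloaded pool 3, to 0.10. On S77900_g_at they were 164 and 184, also within or just under that range (-0.18 ± 0.19, limma adjusted p = 0.692). Whether the response of Myl9 to walking differs from that of Tagln or Acta2 was not tested. Myh11 X16262_s_at had its lowest values after walking, 88.9 and 69.7, below all unloaded pools (-0.36 ± 0.20, limma adjusted p = 0.389), whereas S61948_s_at gave 35.1 and 38.6 inside the unloaded range (0.34 ± 0.38).

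Des had walked signals of 2854 and 4256, the first within and the second above the unloaded range (0.22 ± 0.18, limma adjusted p = 0.601). Without walked pool 2 the value was -0.07. Vim had 891 and 881, both just above the highest unloaded pool (0.22 ± 0.16, limma adjusted p = 0.531). The intervals, -0.19 to 0.63 for Des and -0.13 to 0.57 for Vim, leave room for changes of either sign.

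The third comparison set walked against control soleus. Myl9 S77900_at fell and was the single call among the 11, against 4.61% of all tested probe sets lower and 4.46% higher. The walked signals of 237 and 178 were far below the 441 to 807 of control, a log2 fold change of -1.42 ± 0.35 (limma adjusted p = 0.0329) or 2.68-fold lower. The call was lost without control pool 3 (-1.14, adjusted p = 0.0702), without walked pool 1 (-1.63, 0.0937) or walked pool 2 (-1.21, 0.212), and with no filter on dim probe sets (0.149). S77900_g_at was lower too, with no overlap between groups (-0.53 ± 0.19, limma adjusted p = 0.104), as was Myh11 X16262_s_at (-0.49 ± 0.20, limma adjusted p = 0.152). In 3 of the 12 probe sets both walked pools were below every control pool, and in 1 both were above. Over the 8740 probe sets these shares were 22.4% and 13.4%, so such separation was common in this comparison.

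Tagln and Acta2 had no call in walked against control soleus. Tagln M83107_at had -0.26 ± 0.25 (95% interval -0.80 to 0.28) and M83107_g_at -0.24 ± 0.25 (-0.785 to 0.298), with walked and control pools overlapping on both. Both intervals include 0 but leave room for a part of the fall seen in unloaded soleus. Acta2 X06801cds_i_at had a mean of 108 ± 2.97 (SD, n = 2) in walked and 108 ± 12.3 (n = 3) in control pools, a log2 fold change of 0.01 whose interval of -1.42 to 1.43 is wide. Des was higher in both walked pools than in any control (0.56 ± 0.18, interval 0.15 to 0.97, limma adjusted p = 0.0827), a value that came to 0.27 when walked pool 2 was left out and to 0.85 when walked pool 1 was. Vim did not separate from control (-0.12 ± 0.16).

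By group mean the order of levels was control, walked, unloaded for Vim, both probe sets of Tagln and 2 of the 3 of Acta2, and also for Myh11 S61948_s_at and the untested Myh11 X16261_i_at. On Acta2 X06801cds_i_at control and walked means were equal to 3 digits. For the called probe sets of Acta2 and Tagln, control and walked pools overlapped in this order, and unloaded pools stood apart below both. For Myl9 the order was control, unloaded, walked, with the last 2 overlapping. Des had the reverse order, walked, unloaded, control, where walked and unloaded pools overlapped. Myh11 X16262_s_at ranked as Myl9 did, but its control and unloaded pools overlapped and its walked pools were lowest.

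Partners of these genes were read from lists of related genes. Besides the members, 15 genes of the smooth muscle contractile apparatus and its cytoskeleton were tested with 20 probe sets. In unloaded against control 1 of the 20 fell and 0 rose, with a median log2 fold change of -0.23. The fall was in Tpm1, on M60666_s_at (-1.02 ± 0.24, limma adjusted p = 0.0261), named after its value was seen, whereas the 3 brighter Tpm1 probe sets had 0.27 to 0.39. Of the 20 probe sets 14 lay below 0 and 6 above in unloaded against control, and 9 below and 11 above in walked against unloaded. Calponin Cnn1, an actin-binding protein of smooth muscle, had -0.38 and 1.05 in these 2 comparisons. The enteric-type smooth muscle actin Actg2 had -0.72 and 0.98, though its unloaded pool 3 (98.4) was above every control pool (61.6 to 88.8). In contrast, Actn4 had -0.21 and -0.19, and Cnn3 had -0.02 and -0.03 on its brightest probe set. None of these values was called. In walked against unloaded 1 of 20 rose, the non-muscle tropomyosin Tpm4 (0.65 ± 0.16, limma adjusted p = 0.0467), and its second probe set had 0.19. That Tpm4 call held only without control pool 3 among the 8 fits with 1 array left out (0.58 to 0.72, adjusted p up to 0.244). In walked against control limma called 0 of the 20, and the median was 0.11.

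Among the other actins and tropomyosins, 9 genes with 16 probe sets, 3 fell and 0 rose in unloaded soleus (median -0.39), and 3 rose and 0 fell in walked against unloaded soleus (median 0.16). The cytoplasmic actin Actb fell from 1466 ± 95.6 (SD, n = 3) to 943 ± 92.2 (n = 3), a log2 fold change of -0.64 ± 0.12 (limma adjusted p = 0.00779). It rose again to 1506 ± 3.61 (n = 2) after walking (0.68 ± 0.13, limma adjusted p = 0.0134). The rise was not called without walked pool 1 (0.68, adjusted p = 0.0972) or walked pool 2 (0.68, 0.109). Actb is made by nearly all cells, and is often used as a loading control. Its close relative Actg1 had -0.45 (adjusted p = 0.0559) and then rose by 0.61 (limma adjusted p = 0.0338), on an _f_at probe set, a call lost in 6 of the 8 fits with 1 array left out (0.52 to 0.67, adjusted p up to 0.216). The slow tropomyosin Tpm3 fell on S82383_s_at (-0.95 ± 0.17, limma adjusted p = 0.00594), whereas its probe set L24776_at was not called in unloaded soleus. The third fall was the Tpm1 probe set above, and the third rise was Tpm4. In walked against control 1 probe set rose (Acta1, below) and 1 fell, Tpm3 L24776_at (-1.71 ± 0.44, limma adjusted p = 0.0358), named after its value was seen. Tpm3 S82383_s_at was not called in that comparison.

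The striated actins had no call in the first 2 comparisons. Skeletal actin Acta1 had 1358 ± 81.0 in control, 2090 ± 507 in unloaded and 2975 ± 1200 in walked pools, and rose in walked against control (1.07 ± 0.24, limma adjusted p = 0.0221). Its value was 0.65 without walked pool 2 (adjusted p = 0.193) and 1.06 without control pool 2 (0.0529). Cardiac actin Actc1 had -0.16 and 0.05 in the first 2 comparisons. Skeletal and cardiac actin are nearly the same protein as Acta2, so probes in coding sequence such as X06801cds_f_at may read them as well. Their part in the values of that probe set was not tested.

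**Figure D3:**
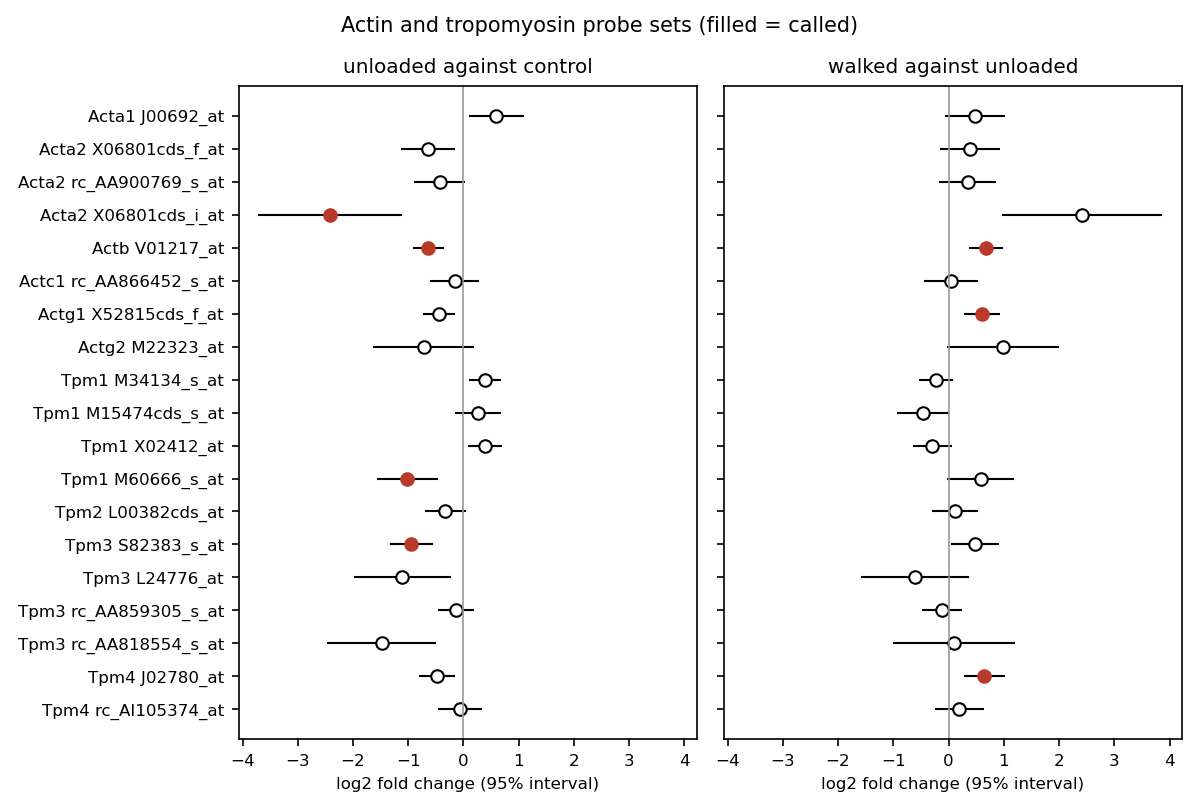
Log2 fold change (horizontal axes) with its 95% interval for the 19 tested actin and tropomyosin probe sets, Acta2 included, in unloaded against control and in walked against unloaded; filled points were called by limma. Actb is called below 0 in the first and above 0 in the second, whereas Acta1 lies above 0 in both without a call.

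Intermediate filament genes and their partners gave 0 calls by limma in any of the 3 comparisons. Beside Des and Vim, 10 genes were tested with 15 probe sets, and the medians were -0.06, -0.05 and -0.13. Nestin (Nes), the filament of immature and synaptic muscle regions, had -0.18, 0.04 and -0.14. The linker plectin (Plec), which anchors desmin filaments, had -0.09, -0.09 and -0.18 on its brightest probe set. The chaperone Cryab, which protects desmin, had 0.14, 0.00 and 0.14 on its brightest probe set and 0.34, 0.16 and 0.50 on the other. The nuclear lamin Lmna had -0.29, 0.60 and 0.31. The lowest adjusted p among the 15 was 0.0798, for the nuclear envelope protein Tmpo in walked against control.

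Regulators of smooth muscle tone, which set how strongly the contractile genes act, were read with 31 probe sets of 17 genes. In unloaded soleus 2 fell and 0 rose. One of these falls was in the natriuretic peptide receptor Npr1 on S82229_s_at (-0.86, limma adjusted p = 0.00880), whose other probe sets had -0.20 and 0.08. It was named after its value was seen. Gucy1a1, the nitric oxide receptor subunit, fell in walked against unloaded soleus (-2.21 ± 0.55, limma adjusted p = 0.0474), and was -1.26 without walked pool 1 (adjusted p = 0.275). With 1 array left out, the call held only without control pool 3 or walked pool 2. Kcnj8, the pore of the vascular ATP-sensitive potassium channel, fell in walked against control (-0.87 ± 0.18, limma adjusted p = 0.0172), but not without walked pool 1 (-0.77, adjusted p = 0.112) or walked pool 2 (-0.97, 0.0727).

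Regulators of SRF and myocardin were read with 10 probe sets of 8 genes. Klf4, a repressor of smooth muscle genes and an early response gene in many cells, rose after walking on both probe sets. On L26292_g_at the unloaded signals were 53.6, 42.6 and 25.5 and the walked signals 210.3 and 245, a log2 fold change of 2.55 ± 0.30 (limma adjusted p = 0.000348). The other probe set, L26292_at, rose by 2.83. In unloaded against control 1 of the 10 fell, also Klf4 on L26292_at (-1.12 ± 0.25, limma adjusted p = 0.0217), while L26292_g_at had -0.53. The L26292_at fall was named after its value was seen. In walked against control both Klf4 probe sets rose (2.02 and 1.72), L26292_g_at not without walked pool 2 (1.91, adjusted p = 0.0504).

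Markers of other cells moved with these genes in part. Of 7 tested pericyte probe sets 0 were called in either comparison with the unloaded pools and 1 fell in walked against control (Kcnj8), and the summed signal of 5 marker genes was 750.8 to 779.7 in control, 597 to 741 in unloaded and 654 to 723 in walked pools. Of 12 endothelial probe sets 0 were called in any comparison, and the summed signal of 10 genes was 976 to 1300 in control, 920.4 to 1165 in unloaded and 1038 to 1153 in walked pools. Of 26 fibroblast probe sets 5 rose in unloaded soleus, 4 of Dcn and 1 of Lum, while 14 of the 26 lay below 0, and the summed signal was 10650 to 14460 in control, 11610 to 18900 in unloaded and 13010 to 14110 in walked pools. In walked pools 2 of the 26 fell against unloaded, while 2 rose and 4 fell against control. Fibre markers summed to 32840 to 33560 in control, 35870 to 46400 in unloaded and 41700 to 46880 in walked pools, and in walked against control 7 of their 23 probe sets rose, among them Myh7, and 1 fell. In unloaded against control 1 of the 23 fell, and in walked against unloaded 2 fell, with 0 higher in either. Nerve and Schwann cell markers summed to 1689 to 1931, 1339 to 1395 and 1436 to 1502 in control, unloaded and walked pools, with 1 of 11 probe sets lower in each comparison. Satellite cell markers summed to 2930 to 3406, 2201 to 2580 and 4172 to 4901 in the same order of groups. Of their 8 probe sets 2 fell with unloading. After walking 2 rose relative to the unloaded pools, both of Sdc4, while 2 rose and 2 fell relative to controls. The higher sum of the walked pools was not shared by most of these probe sets. Relative to the unloaded pools 6 of the 8 lay below 0 and 2 above, with a median of -0.15. Relative to controls the counts were also 6 and 2, with a median of -0.43. Leukocyte markers summed to 1384 to 1408, 1361 to 1570 and 1095 to 1208, and adipocyte markers to 3780 to 3972, 4088 to 5102 and 3924 to 4521, each with 1 probe set higher in unloaded against control. Of 12 leukocyte probe sets, walked pools had 1 fall against unloaded and 2 against control. Of these markers 0 were at or under the floor on all arrays, but some summed genes were under the filter on mean signal. These were 2 of 10 endothelial, 3 of 10 leukocyte, 2 of 10 nerve, 1 of 6 adipocyte and 1 of 6 satellite cell genes. The part of any of these cells in the changes of the 6 genes was not tested.

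For each gene's brightest probe set, the 3 genes with the most similar log2 signal over the 8 arrays were listed by Pearson r, as a description with no test. The 8 arrays share their 3 groups, so genes that move with group are drawn together. Tagln was most like Akap1 (0.963), Ppp2cb (0.956) and the pericyte receptor Pdgfrb (0.955), whose group means were 78.1 in control, 44.8 in unloaded and 77.1 in walked pools. Acta2 X06801cds_f_at was most like Id1 (0.979), the endothelial nitric oxide synthase Nos3 (0.943) and Fkbp2 (0.935). Myl9 was most like Pebp1 (0.984), Polr2h (0.982) and Uaca (0.974), and Myh11 like Bgn (0.980), Rpsa (0.975) and C1qbp (0.969). Des was most like the fibre genes Acta1 (0.976) and Myh7 (0.957) and the ribosomal protein gene Rps29 (0.953). Vim was most like Thbs4 (0.923), the arterial connexin Gja4 (0.917) and Golgb1 (0.917).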

How the data were processed

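Total RNA of soleus pools was hybridised to 8 one-colour Affymetrix arrays (3 control, 3 unloaded, 2 walked). The authors deposited 1 linear signal intensity per probe set. The submitters' processing notes name MAS5 as the tool, with its version not given in the sources used here. All arrays were brought to a 2% trimmed mean of 148.6 (148.3 to 148.8 as deposited), values under the 10th percentile (4.10) were set to it, log2 was taken, and probe sets under the 40th percentile of mean signal (25.8) were left out. The model of limma 3.58.1 in R 4.3.3 (lmFit, eBayes with trend, two-sided) was fitted to 5244 probe sets and all 8 arrays, and tested on simulated data. Levels are means with SD, fold changes have SE or a 95% interval. Symbols came from the platform annotation (7006 probe sets with 1 symbol, 308 with several, 1426 unnamed here) and matched the GRCr8 gene table for 6985.

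The members and lists were chosen with earlier results of these data known. Named were every probe set of the 6 genes, up to 4 called genes per list that is no marker list and comparison by smallest p on the gene's brightest probe set, and the 3 most similar genes per member; exceptions are marked, and list genes without a call are examples. One called list gene is not reported here. Marker lists of leukocytes, nerve, adipocytes and satellite cells were also counted. Alternatives were other scalings, floors and filters, no trend, 2-group fits, a minimum fold, the pool number as a block, and each array left out.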

Additional observations from a re-analysis of the deposited data

How the results depend on the processing

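In unloaded against control, 4 member probe sets were called; the count was 0 with no filter on dim probe sets, 1 without the mean-variance trend and 2 with only the 2 groups compared, and 1 to 3 when 1 array was left out. In walked against unloaded it was 0, and 1 with the floor at the 20th percentile and 0 to 1 with 1 array left out. In walked against control it was 1, and 0 with no filter or no trend and 0 to 1 with 1 array left out. Over all tested probe sets, the 383 calls of unloaded against control became 228 with no filter, 243 without the trend and 230 to 405 with 1 array left out (245 without unloaded pool 1, 230 without pool 2). The 220 of walked against unloaded became 120 to 261, with 122 and 120 without walked pool 1 or 2. The 476 of walked against control became 216 with no filter, 211 without the trend and 104 to 504 with 1 array left out (258 and 297 without control pool 2 or 3, 145 and 104 without walked pool 1 or 2). Where 1 walked pool was left, it was assumed to vary like the other groups. The cause was not tested.

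With the pool number as a block the members' counts were 4, 0 and 1, as without it, and the 476 calls became 251. For Myl9 S77900_at in unloaded against control the limma adjusted p was 0.00234 with the block and 0.0465 without it. Deviations from group means of arrays with the same pool number correlated by -0.0670 to 0.0520, and those with different numbers by -0.0680 to 0.111. The deviations of the 2 walked pools are equal in size and opposite in sign. With so few pools these values cannot decide whether pools with the same number were paired.

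No called value of a member changed sign. Those that did lay near 0 and were not called. With 1 array left out, walked against control ranged from -0.265 to 0.040 for Acta2 rc_AA900769_s_at (above 0 without control pool 3), -0.090 to 0.072 for Acta2 X06801cds_i_at (below 0 without control pool 1 or walked pool 2), -0.543 to 0.025 for Tagln M83107_at (above 0 without walked pool 1) and -0.120 to 0.053 for Myh11 S61948_s_at (above 0 without control pool 2 or walked pool 1), which was also 0.051 with quantile normalization. Walked against unloaded ranged from -0.068 to 0.509 for Des (below 0 without walked pool 2) and -0.548 to 0.101 for Myl9 S77900_at (above 0 without unloaded pool 3), which was 0.067 with the pool block. Of 558 values of members under alternatives, 517 kept direction and side of the threshold, 28 lost a call, 3 gained one and 10 changed sign. Signals near the floor, as in Myh11 X16261_i_at and Acta2 X06801cds_i_at, limit the precision of folds.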

Other observations

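Genes of the TGF-beta and PDGF pathways had no called change. Of 22 tested probe sets (16 genes) for these pathways and their targets, limma called 0 in each of the 3 comparisons, and their median log2 fold changes were -0.19 (unloaded over control), -0.04 (walked over unloaded) and -0.12 (walked over control). In unloaded against control 17 of the 22 lay below 0. Pdgfrb, the receptor that pericytes and smooth muscle cells use to respond to PDGF, had control signals of 61.0, 66.2 and 107, unloaded signals of 43.6, 34.1 and 56.6 and walked signals of 67.6 and 86.6. Its unloaded pools lay below all others, but the changes of -0.79 and 0.80 in the first 2 comparisons were not called (limma adjusted p = 0.117 and 0.199). Pdgfra, the receptor of fibroblasts, pointed the other way, with 87.4, 87.3 and 87.4 in control and 136, 125 and 123 in unloaded pools (0.55, limma adjusted p = 0.0623).

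Of the 7 tested pericyte probe sets 5 lay below 0 and 2 above in unloaded against control, with 0 called. The proteoglycan-bearing pericyte marker Cspg4 had 109, 108 and 119 in control and 99.6, 88.4 and 43.7 in unloaded soleus (-0.62, limma adjusted p = 0.230). Fhl2, a cofactor of SRF, had 292, 377 and 405 in control and 258, 198 and 234 in unloaded soleus (-0.63, limma adjusted p = 0.0524), again with no overlap and no call.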
